A study of Sus scrofa with 6 samples.

Results

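Keratins, the proteins of desmosomes and the cadherins and catenins of adherens junctions were examined in IPEC-J2 cells, an established line of pig small-intestinal epithelium. The members were the keratins (KRT), desmogleins (DSG), desmocollins (DSC), plakophilins (PKP), catenins (CTNNA, CTNNB and CTNND), CDH1, CDH3, JUP, DSP, PPL, EVPL and PERP, picked out by a pattern on the gene names of the deposited table, a pattern proposed with earlier results of these data known. They came to 60 of the 31908 gene IDs in the table, listed on 157 of its 63041 rows. The CON group was given phosphate-buffered saline (PBS) and the CDCA group was given the primary bile acid chenodeoxycholic acid at 50 μM, both for 24 h, with 3 RNA-seq libraries in each group. No genotype or other treatment separated the groups in the sample labels. The study calls the libraries biological replicates, while neither it nor the labels say whether they came from separate cultures on separate days, so the p-values measure only the spread between these libraries.

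Keratins are the intermediate filaments of epithelia. They form obligate pairs of a type I (acidic) and a type II (basic) chain, and KRT8 with KRT18 is the pair typical of simple epithelia such as the gut lining, whereas KRT5 with KRT14 is typical of basal cells of stratified epithelia. Desmosomes anchor these filaments at cell borders: desmogleins and desmocollins span the membrane, plakoglobin (JUP) and plakophilins bind their tails, and desmoplakin (DSP) links that plaque to keratin. Adherens junctions hold the actin belt instead, through E-cadherin (CDH1) or P-cadherin (CDH3) bound to p120 catenin (CTNND1) and to β-catenin (CTNNB1), which in turn binds α-catenin (CTNNA1).

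Values were TPM, a length-adjusted share of a library's transcripts, summed over the rows of a gene ID. Differences were tested with limma on log2(TPM + 1), a scale that understates the change of low genes, for genes whose mean over the 6 libraries reached 1 TPM and with a Benjamini-Hochberg false discovery rate (FDR) over all of them. This filter kept 16 of the 60 members among 8708 genes. Of the other members, 26 had values above 0 but a mean under the filter and 18 were listed at 0 in every library. The deposited table gives TPM alone, so the number of reads behind a single value is unknown, and the read totals that the study gives for its libraries were not used. Per library, the TPM of all listed genes came to between 351770 and 366073. A value of 0 may be a failed estimate, since RHOA, a GTPase that cells of most kinds express, was also listed at no more than 0.04 TPM in any library, and no absence is read from such values.

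CDCA-treated cells held more DSP, PKP4, PKP1, KRT5, CTNNB1 and KRT18 mRNA and less EVPL, KRT7 and PPL mRNA than the CON group (FDR under 0.05, limma). The 6 members that were higher stand against 29.3% of all tested genes, and the 3 that were lower against 23.9%. EVPL, which is among those lower, reached the filter only through the CON group and is no support for a fall. The remaining 7 members, KRT8, PERP, JUP, CTNNA1, CTNND1, DSC2 and PKP2, did not pass. No member passed both an FDR of 0.05 and a 2-fold limit on the log2(TPM + 1) scale, which 3.51% of all tested genes passed upward and 3.9% downward. Without adjustment, 10 of the 16 members had p under 0.05 in limma, against 59% of all tested genes. The 3 CON and 3 CDCA values did not overlap for 10 of the 16 members, against 61.5% of all tested genes. The median log2 difference of the 16 members was 0.05, and that of all tested genes was also 0.05. In a bulk library, fewer cells of a type and less RNA per cell cannot be told apart.

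**Figure D1:**
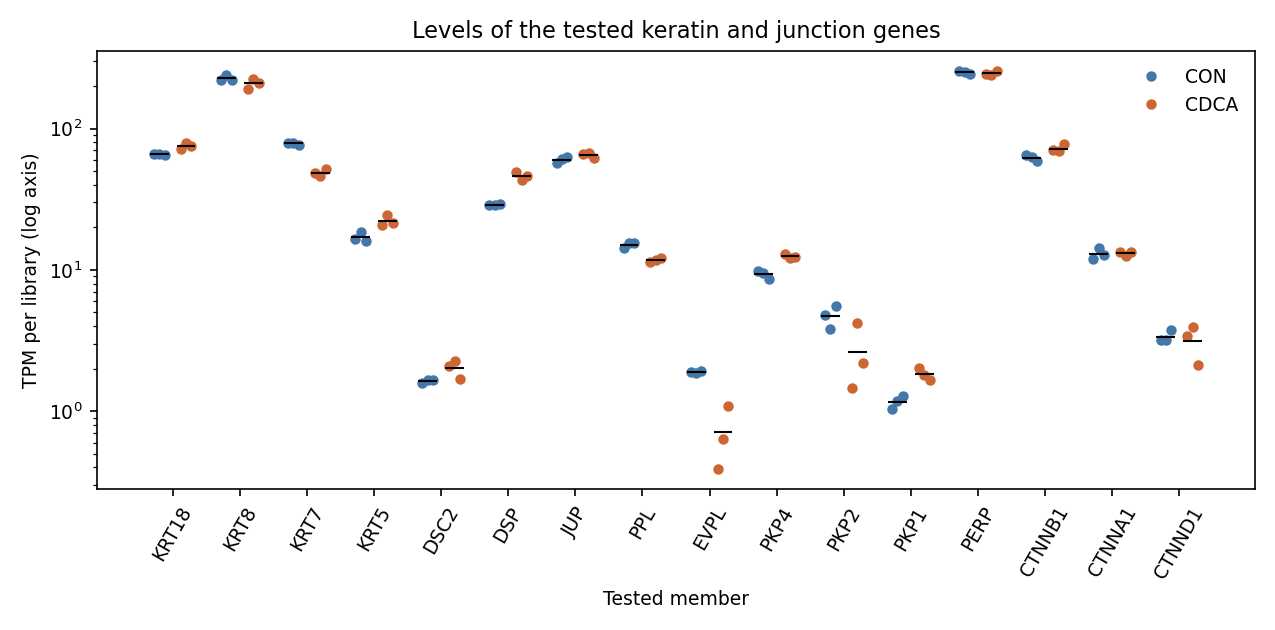
TPM in each library (log axis) for the 16 tested members, ordered by role from keratins through desmosomal proteins to catenins, with CON libraries in blue, CDCA libraries in orange and a line at each group mean (n = 3 libraries per group). PERP and KRT8 lie highest, and DSP, KRT7 and EVPL show clear gaps between the groups.

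**Figure D2:**
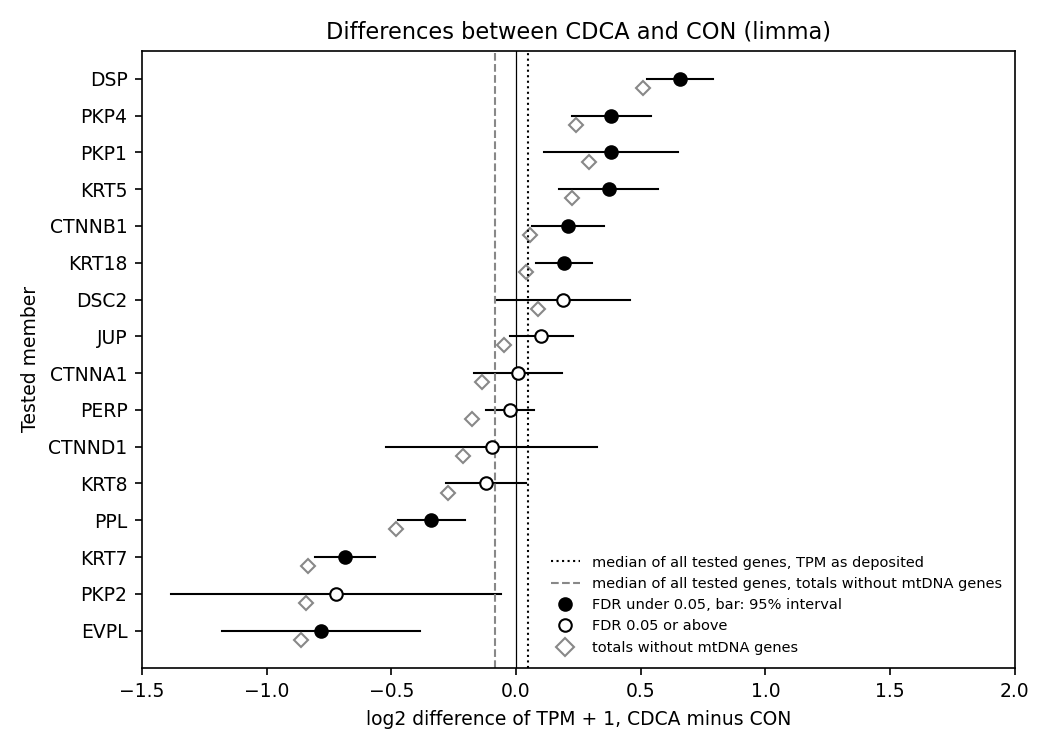
Difference of log2(TPM + 1), CDCA minus CON, for the 16 tested members (circles, with 95% intervals from limma, filled where the FDR was under 0.05) and the same difference after each library was rescaled without its mitochondrial genes (diamonds). The dotted and dashed lines mark the medians of all tested genes, 0.05 and -0.08, and every diamond lies to the left of its circle.

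The means of the 16 tested members spanned from 1.17 to 250.2 TPM in the CON group. From the highest level downward the order was PERP, KRT8, KRT7, KRT18, CTNNB1, JUP, DSP, KRT5, PPL, CTNNA1, PKP4, PKP2, CTNND1, EVPL, DSC2 and PKP1. Among neighbours in this order, the CON ranges overlapped between KRT18 and CTNNB1 and between CTNNB1 and JUP, and nowhere else. PERP stood at the 97.9th percentile and KRT8 at the 97.6th percentile of all tested genes by mean TPM. By the same measure PKP1 stood at percentile 9.67 and EVPL at percentile 6.31.

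PERP (ENSSSCG00000038420), a membrane-spanning desmosomal protein and a target of the p53 family, was the most abundant member. It was measured at 256.8, 251.67 and 242.06 TPM in the CON group and at 244.45, 239.57 and 254.32 TPM in the CDCA group. The groups overlapped. The log2 difference was -0.02 with a 95% interval from -0.12 to 0.07 (FDR = 0.646, limma). With totals without genes encoded by mitochondrial DNA it was -0.18 and passed as lower (FDR = 0.0117, limma).

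Among the keratins, the simple-epithelial pair was listed with far more of the type II than of the type I chain. KRT8 (ENSSSCG00000000252), the type II chain, was at 221.36, 237.76 and 219.71 TPM in the CON group and at 190.22, 224.79 and 210.37 TPM in the CDCA group. CDCA replicate 2 lay within the CON range and the other CDCA libraries below it, and the log2 difference of -0.12 (95% interval -0.28 to 0.04) did not pass (FDR = 0.178, limma). Leaving out single libraries gave -0.18 to -0.06, the latter without CDCA replicate 1. The difference of KRT8 was -0.27 and passed with totals without genes encoded by mitochondrial DNA (FDR = 0.0065, limma). KRT18 (ENSSSCG00000000253), its type I partner, was at 66.39, 65.68 and 64.61 TPM in the CON group and at 71.42, 79.22 and 74.80 TPM in the CDCA group. All CDCA libraries lay above all CON libraries, and KRT18 rose by a log2 difference of 0.19 (SE 0.05, FDR = 0.0128, limma). With totals without genes encoded by mitochondrial DNA the difference was 0.04 and did not pass (FDR = 0.411, limma). The genes of this pair lie close together on a chromosome, with 1 gene entry between them in the RefSeq annotation of the pig assembly Sscrofa11.1.

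KRT7 (ENSSSCG00000038966), a type II keratin of glandular and ductal epithelia, was at 79.26, 79.36 and 77.02 TPM in the CON group and at 48.32, 45.85 and 51.46 TPM in the CDCA group. The groups were far apart, and KRT7 fell to 0.618 of its CON mean, by 0.68 on the log2(TPM + 1) scale (SE 0.05, FDR = 7.4e-05, limma). KRT5 (ENSSSCG00000000248), the type II keratin of basal cells, was at 16.41, 18.48 and 16.13 TPM in the CON group and at 20.71, 24.64 and 21.62 TPM in the CDCA group. It rose by a log2 difference of 0.37 (SE 0.08, FDR = 0.0091, limma), opposite to KRT7, with no overlap between the groups. Keratin genes share long near-identical stretches and have many copies in the genome, so the way that RSEM divided reads among them is uncertain.

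KRT7 supplied 20.2% ± 0.452 (SD, n = 3) of the summed TPM of the keratin members in the CON group and 13.7% ± 1.29 in the CDCA group, with no overlap. The share of KRT8 was 58.2% ± 0.793 in the CON group and 58.6% ± 1.29 in the CDCA group, and these ranges overlapped. The summed keratin members came to 388 ± 12.2 TPM in the CON group and 356 ± 22.0 TPM in the CDCA group, with the lowest CON library at 378.74 TPM and the highest CDCA library at 375.47 TPM. The type I members alone summed to 66.3 ± 0.848 TPM in the CON group and 76.2 ± 3.73 TPM in the CDCA group, almost all of it KRT18. The entry described as keratin 14-like, a type I keratin outside the members because its gene ID has no name, turned this direction: with it the type I sum was 742 ± 22.7 TPM in the CON group and 552 ± 21.7 TPM in the CDCA group. KRT19, a type I keratin among the epithelial markers looked for, was not found by name in the deposited table. The type I sums, and the ratios of type II to type I keratins, may therefore be incomplete.

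The other keratin members were listed under the filter or at 0, which in this table may be a failed estimate. Of 17 type I members, only KRT18 passed the filter, 10 had values above 0 with means of up to 0.32 TPM and 6 were listed at 0 throughout. Of 19 type II members, KRT8, KRT7 and KRT5 passed, 5 had values above 0 with means of up to 0.0917 TPM and 11 were listed at 0 throughout. KRT20, a type I keratin of mature enterocytes and goblet cells, and KRT1, a type II keratin of differentiating epidermis, were among those listed at 0. KRT15, a type I keratin of basal cells, was at 0.22, 0.12 and 0.23 TPM in the CON group and at 0.49, 0.45 and 0.41 TPM in the CDCA group. It passed as higher in the fit with no filter (log2 difference 0.29, FDR = 0.0234, limma), but both groups lay under 1 TPM, where each step of the deposited 2 decimals is a larger part of the value.

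Among the desmosomal cadherins, which join neighbouring cells, only desmocollin 2 (DSC2, ENSSSCG00000024800) passed the filter. DSC2 was at 1.58, 1.67 and 1.66 TPM in the CON group and at 2.08, 2.28 and 1.68 TPM in the CDCA group. CDCA replicate 3 lay close to the CON libraries, and the log2 difference of 0.19 (95% interval -0.08 to 0.46) did not pass (FDR = 0.205, limma). The other 5 desmosomal cadherins, DSC1, DSG1, DSG2, DSG3 and DSG4, had means of no more than 0.0583 TPM. DSG2, the desmoglein of simple epithelia, was listed at 0.12 TPM in CON replicate 2 and at 0 in the other libraries.

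The largest rise among the members on the log2(TPM + 1) scale was in the desmosomal plaque. DSP (ENSSSCG00000001025), the plakin that ties the plaque to keratin filaments, was at 28.91, 28.85 and 29.16 TPM in the CON group and at 49.36, 43.25 and 46.51 TPM in the CDCA group. The CON libraries were almost equal and every CDCA library was above them, and DSP rose 1.60-fold in mean TPM, by a log2 difference of 0.66 (SE 0.06, FDR = 0.000126, limma). JUP (ENSSSCG00000017428), or plakoglobin, the armadillo protein found in desmosomes and adherens junctions alike, was at 57.01, 60.80 and 62.79 TPM in the CON group and at 65.71, 66.62 and 61.65 TPM in the CDCA group. The groups overlapped through CDCA replicate 3, and the log2 difference of 0.10 (95% interval -0.02 to 0.23) did not pass (FDR = 0.146, limma).

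The other plakins, periplakin and envoplakin, form a complex with each other at desmosomes and under the cornified envelope of stratified epithelia, and both fell. PPL (ENSSSCG00000007927) was at 14.38, 15.54 and 15.39 TPM in the CON group and at 11.37, 11.72 and 12.07 TPM in the CDCA group, a log2 difference of -0.34 (SE 0.06, FDR = 0.0024, limma). EVPL (ENSSSCG00000017192) was low, at 1.90, 1.87 and 1.91 TPM in the CON group and at 0.39, 0.64 and 1.09 TPM in the CDCA group. The CON libraries were almost equal, the CDCA libraries were spread and all lay below, and the log2 difference was -0.78 (SE 0.17, FDR = 0.0074, limma). EVPL reached the filter only through the CON group, where its mean was 1.89 TPM against 0.707 TPM in the CDCA group, so its result is no support for a fall among the members. With a pseudocount of 0.1 TPM the log2 difference of EVPL was -1.40 (FDR = 0.0135), past the 2-fold limit, since a pseudocount of 1 TPM is large beside these levels. DSP made up 27.3% ± 0.857 of the summed TPM of DSP, JUP, PPL and EVPL in the CON group and 37.5% ± 1.90 in the CDCA group (SD, n = 3).

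Plakophilins are armadillo proteins that gather desmosomal cadherins and desmoplakin into the plaque. PKP4 (ENSSSCG00000015878), which is also found at adherens junctions, was the most abundant, at 9.81, 9.57 and 8.63 TPM in the CON group and 12.97, 12.14 and 12.28 TPM in the CDCA group. The groups did not overlap, and PKP4 rose by a log2 difference of 0.38 (SE 0.07, FDR = 0.0032, limma). With the row of highest mean in place of the sum over its 9 rows, the log2 difference was 0.42 and did not pass (FDR = 0.0935).

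PKP1 (ENSSSCG00000030694), the plakophilin of the upper layers of stratified epithelia, was at 1.03, 1.18 and 1.29 TPM in the CON group and at 2.03, 1.79 and 1.65 TPM in the CDCA group, without overlap. Its log2 difference was 0.38 (SE 0.11, FDR = 0.0268, limma), but the FDR was 0.0654 without CON replicate 1, 0.0588 without CON replicate 2, 0.0661 without CDCA replicate 1 and 0.0513 without CDCA replicate 2. With a pseudocount of 0.1 TPM its log2 difference was 0.60, and with totals without mitochondrial genes it was 0.29 and did not pass (FDR = 0.0733, limma). PKP2 (ENSSSCG00000000528), a plakophilin of simple epithelia and heart, was at 4.83, 3.82 and 5.57 TPM in the CON group and at 1.47, 4.23 and 2.19 TPM in the CDCA group. CDCA replicate 2 lay within the CON range and the other CDCA libraries far below it, and the log2 difference of -0.72 (95% interval -1.38 to -0.06) did not pass (FDR = 0.0653, limma). The log2 difference of PKP2 was -1.02 (FDR = 0.0077) without CDCA replicate 2 and -0.48 (FDR = 0.169) without CDCA replicate 1, and the FDR reached 0.175 without CON replicate 3. PKP3 was under the filter, with a mean of 0.552 TPM.

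The classical cadherins of the adherens junction were listed under the filter, at levels where a failed estimate cannot be told apart from low expression, and only its catenins were tested. CDH1 (ENSSSCG00000025652) was at 0.49, 0.39 and 0.31 TPM in the CON group and at 0.58, 0.46 and 0.56 TPM in the CDCA group, and the groups overlapped. CDH3 (ENSSSCG00000023162) was at 0.05, 0.02 and 0.03 TPM in the CON group and was listed at 0 in the CDCA libraries.

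Of the catenins, CTNNB1 (ENSSSCG00000011274), which binds the cadherin tail and is also the coactivator of Wnt signaling, was the most abundant. It was at 65.47, 62.56 and 59.01 TPM in the CON group and at 70.21, 69.01 and 77.40 TPM in the CDCA group. The CDCA libraries lay above the CON libraries and the log2 difference was 0.21 (SE 0.06, FDR = 0.0261, limma). This result depended on single libraries, with an FDR of 0.0666 without CON replicate 2, 0.0708 without CON replicate 3 and 0.068 without CDCA replicate 3. It was lost with totals without mitochondrial genes (log2 difference 0.06, FDR = 0.488, limma). The FDR in limma was also 0.0597 with no filter, 0.0508 with the highest row and 0.0534 without a trend. CTNNA1 (ENSSSCG00000014339), the link from β-catenin to actin, was at 12.03, 14.24 and 12.83 TPM in the CON group and at 13.39, 12.48 and 13.40 TPM in the CDCA group, with a log2 difference of 0.01 (95% interval -0.17 to 0.18, FDR = 0.935, limma).

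CTNND1 (ENSSSCG00000013174), which stabilizes cadherins at the membrane, was at 3.20, 3.17 and 3.75 TPM in the CON group and at 3.40, 3.94 and 2.13 TPM in the CDCA group. The groups overlapped, and its log2 difference was -0.10 (95% interval -0.52 to 0.33, FDR = 0.673, limma). CTNNA3 and CTNND2, catenins of heart and nerve cells, had means of no more than 0.0117 TPM. CTNNBL1 and CTNNBIP1 matched the naming pattern but are not junction proteins. CTNNBL1, a splicing-associated protein, had a mean of 0.828 TPM and CTNNBIP1, an inhibitor of β-catenin in the nucleus, was listed at 0.

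Behind the summed values, the rows of a gene did not all move alike. The rows were examined by themselves after the data were seen, for CTNNB1, CTNND1 and KRT5, and they carry no transcript name, so which isoform a row holds is not known. Of 12205 rows whose mean reached 1 TPM, 41.8% had an FDR under 0.05 in limma, and of the 22 such rows of members, 5 were higher and 3 were lower in the CDCA group.

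CTNNB1 had a dominant row and a minor one. The dominant row was at 63.67, 61.13 and 57.52 TPM in the CON group and at 67.21, 65.94 and 74.42 TPM in the CDCA group, with a log2 difference of 0.18 (FDR = 0.0603, limma over rows). The minor row was at 1.78, 1.42 and 1.49 TPM in the CON group and at 2.98, 3.05 and 2.98 TPM in the CDCA group. The minor row rose by a log2 difference of 0.65 (SE 0.11, FDR = 0.0042, limma over rows), and its share of the gene went from 2.50% ± 0.225 to 4.17% ± 0.292 (SD, n = 3).

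CTNND1, whose sum did not pass, held rows that differed in direction. Its highest row was at 1.47, 1.17 and 1.43 TPM in the CON group and at 2.38, 2.50 and 1.73 TPM in the CDCA group, all above the CON libraries (log2 difference 0.44, FDR = 0.0514, limma over rows). In the fit that took the highest row of each gene, the same row had an FDR of 0.0382. Its second row was at 0.94, 0.95 and 1.43 TPM in the CON group and at 0.18, 1.15 and 0.20 TPM in the CDCA group, and the next was at 0.70, 0.91 and 0.68 TPM and at 0.61, 0 and 0 TPM. The latter lay below every CON value in all CDCA libraries, and the second row did so in all but CDCA replicate 2. The share of the highest row in the gene was 40.3% ± 4.90 in the CON group and 71.6% ± 8.99 in the CDCA group (SD, n = 3).

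KRT5 had a pair of rows of like level that both rose. The first was at 8.62, 8.57 and 7.23 TPM in the CON group and at 9.45, 12.03 and 10.77 TPM in the CDCA group (log2 difference 0.36, FDR = 0.0391, limma over rows). The second was at 6.55, 8.17 and 7.82 TPM in the CON group and at 10.31, 12.13 and 10.40 TPM in the CDCA group (log2 difference 0.49, FDR = 0.0111, limma over rows). A further row, under the filter, went the other way. It was at 1.24, 1.43 and 0.95 TPM in the CON group and at 0.05, 0.18 and 0.08 TPM in the CDCA group, so its share of the gene was 7.06% ± 1.02 and 0.447% ± 0.254.

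**Figure D3:**
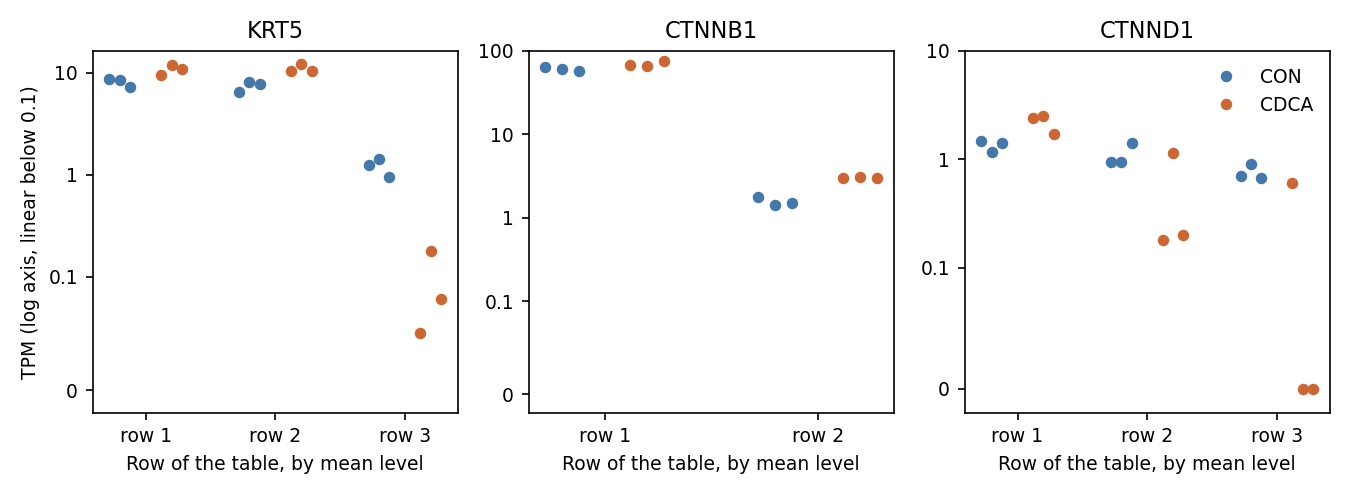
TPM in each library (log axis, linear below 0.1) for the highest rows of KRT5, CTNNB1 and CTNND1, ordered by mean level, with CON libraries in blue and CDCA libraries in orange. The third row of KRT5 lies far lower in the CDCA libraries while its first and second rows lie higher, and the minor row of CTNNB1 lies at 2.98 to 3.05 TPM in the CDCA libraries and at 1.78 TPM or less in the CON libraries.

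Ratios between partner genes within a library were also taken after the data were seen. A ratio is not changed by any scaling of the library, and these are given as descriptions with SD over 3 libraries. KRT8 to KRT18 was 3.45 ± 0.149 in the CON group and 2.77 ± 0.0941 in the CDCA group. KRT7 to KRT8 was 0.347 ± 0.0124 and 0.234 ± 0.0266, whereas KRT5 to KRT8 was 0.0751 ± 0.0023 and 0.107 ± 0.00376. DSP to JUP was 0.482 ± 0.0223 and 0.718 ± 0.0598. None of these ratios overlapped between the groups, with KRT7 lower and KRT5 higher relative to KRT8 and with DSP higher relative to its plaque partner. Each of these pairs holds a gene that had passed by itself, so the separation is no further support.

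DSP to PPL showed the widest gap, at 2.01, 1.86 and 1.89 in the CON group and 4.34, 3.69 and 3.85 in the CDCA group. PKP4 to JUP also did not overlap, at 0.156 ± 0.0174 and 0.193 ± 0.0093. The ratios of CTNNB1 to JUP, CTNNB1 to CTNNA1 and PERP to JUP overlapped between the groups.

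**Figure D4:**
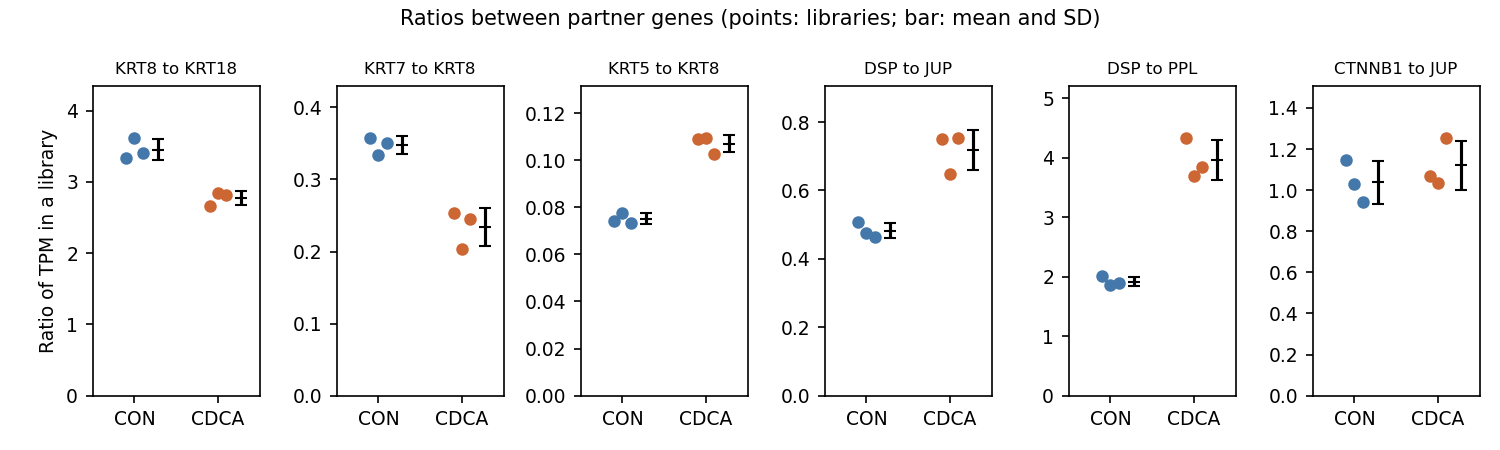
Ratio of the TPM of a pair of genes in each library (linear axes from 0), with CON libraries in blue, CDCA libraries in orange and bars for the mean and SD of 3 libraries. The groups are separate for KRT8 to KRT18, KRT7 to KRT8, KRT5 to KRT8, DSP to JUP and DSP to PPL, and overlap for CTNNB1 to JUP.

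The scaling of the libraries touched several of these results. Genes encoded by mitochondrial DNA (mtDNA) took 13.8% to 15.0% of the listed TPM in the CON libraries and 2.90% to 3.45% in the CDCA libraries, and TPM is a share of the total. With each library rescaled to the same total over its other genes, the median log2 difference of all genes moved by -0.13, from 0.05 to -0.08. The listed genes came to no more than 366073 of the 1000000 TPM of a full library. The total used here was that of the listed genes, so mtDNA weighs more in it than in a full library. The size of this shift, and the results that turn with it, depend on that choice. Of the genes with an FDR under 0.05, 55.0% were higher in the CDCA group with TPM as deposited and 38.7% after rescaling.

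After this rescaling 3 of the 16 members were higher, against 20.1% of all tested genes, and 6 were lower, against 31.9%. DSP, KRT5 and PKP4 remained higher, with log2 differences of 0.51, 0.23 and 0.24, and KRT7, EVPL and PPL remained lower, with -0.84, -0.86 and -0.48. KRT18, CTNNB1 and PKP1 no longer passed. KRT8 (-0.27, FDR = 0.0065), PERP (-0.18, FDR = 0.0117) and PKP2 (-0.84, FDR = 0.0355) passed as lower. Relative to the median of all genes, KRT8 lay at -0.17 before and -0.19 after rescaling, and KRT18 at 0.15 and 0.12. The log2 differences of JUP (-0.05) and CTNNA1 (-0.13) turned negative after rescaling, and neither passed. Relative to the median of all genes they kept their side, at 0.05 and 0.03 for JUP and -0.04 and -0.05 for CTNNA1.

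Other genes that work with these structures were taken from lists written with earlier results of these data known. The counts in each list stand against 29.3% of all tested genes higher and 23.9% lower, and no list was tested as a set. Of 18 adherens junction partners, 12 were tested, 3 were higher and 4 were lower. ACTN1, the α-actinin that crosslinks actin at junctions, fell from 66.7 ± 2.33 to 28.5 ± 1.40 TPM (log2 difference -1.20), while vinculin (VCL), recruited by α-catenin under tension, rose from 2.11 ± 0.271 to 4.68 ± 0.508 TPM (0.87) and zyxin (ZYX) rose from 20.3 ± 2.90 to 33.4 ± 2.82 TPM (0.70). NECTIN3, a cell adhesion protein of adherens junctions, had a log2 difference of -0.38 (FDR = 0.0314, limma). This difference did not pass without any 1 of the CON libraries or without CDCA replicate 3 (FDR up to 0.0879) and was -0.25 without CDCA replicate 2.

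Of 8 hemidesmosome and keratin linker genes, which fasten keratin to the basement membrane or to other filaments, 7 were tested, 2 were higher and 1 was lower. COL17A1, the transmembrane collagen of hemidesmosomes, rose from 281 ± 9.58 to 383 ± 12.1 TPM (log2 difference 0.44, or 0.29 with totals without mtDNA-encoded genes) and plectin (PLEC), the plakin that binds keratin there, fell from 84.2 ± 3.89 to 59.0 ± 1.96 TPM (-0.50). MACF1, an actin and microtubule linker, had a log2 difference of 0.49 (FDR = 0.0235, limma). This difference did not pass without CON replicate 1 or 2 or CDCA replicate 1 or 3 (FDR up to 0.0714) or with totals without mtDNA-encoded genes (FDR = 0.0604).

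Of 11 other intermediate filament and lamin genes 2 were tested, and the nuclear lamin LMNA was lower, by a log2 difference of -0.29, with an FDR of up to 0.0571 without CON replicate 2, CDCA replicate 1 or CDCA replicate 3. Of 13 cornified envelope and crosslinking genes, the list that PPL and EVPL belong with by function, 3 were tested. S100A10 rose by 0.74 and ANXA1 by 0.22 on the log2(TPM + 1) scale, and S100A11 fell by 0.26. With totals without mtDNA-encoded genes the log2 difference of ANXA1 was 0.07 and did not pass (FDR = 0.336, limma), and those of S100A11 and LMNA were larger, at -0.41 and -0.44.

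For β-catenin, 11 of 19 genes of its pathway were tested, 4 were higher and 2 were lower. LEF1, a nuclear partner of β-catenin, rose from 6.74 ± 0.251 to 15.4 ± 1.56 TPM (log2 difference 1.08), whereas CCND1, which encodes cyclin D1, fell from 32.6 ± 0.816 to 21.3 ± 0.481 TPM (-0.59). SOX9, a transcription factor of crypt cells, had a log2 difference of 0.51. BTRC, part of the ligase that marks β-catenin for degradation, had one of 0.82 (FDR = 0.0327, limma), which was lost without CON replicate 2 or 3 or CDCA replicate 2 or 3 (FDR up to 0.1).

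Of 20 transcription factors and splicing regulators of epithelial and mesenchymal states, 12 were tested, 7 were higher and 2 were lower. Those that were lower, named after their values were seen, were the epithelial factors OVOL2, which reached the filter only through the CON group (log2 difference -0.70, FDR = 0.0069, limma), and KLF5 (-0.35, FDR = 0.00055, limma). SNAI1, a repressor of CDH1, rose from 4.64 ± 0.572 to 16.3 ± 1.57 TPM (log2 difference 1.62). ESRP1, an epithelial splicing regulator, rose from 5.96 ± 0.394 to 12.1 ± 0.246 TPM (0.91) and ELF3, an epithelial factor of the ETS family, rose from 15.7 ± 1.62 to 30.2 ± 3.01 TPM (0.90). KLF4 was at 1.95, 7.47 and 8.56 TPM in the CON group and at 19.63, 15.50 and 16.10 TPM in the CDCA group (log2 difference 1.54, FDR = 0.022, limma), with CON replicate 1 far below the other libraries. Without CON replicate 1 the log2 difference of KLF4 was 0.999 (FDR = 0.0018, limma), just under the 2-fold limit, and without any 1 of the CDCA libraries its FDR was 0.0542 to 0.0713.

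**Figure D5:**
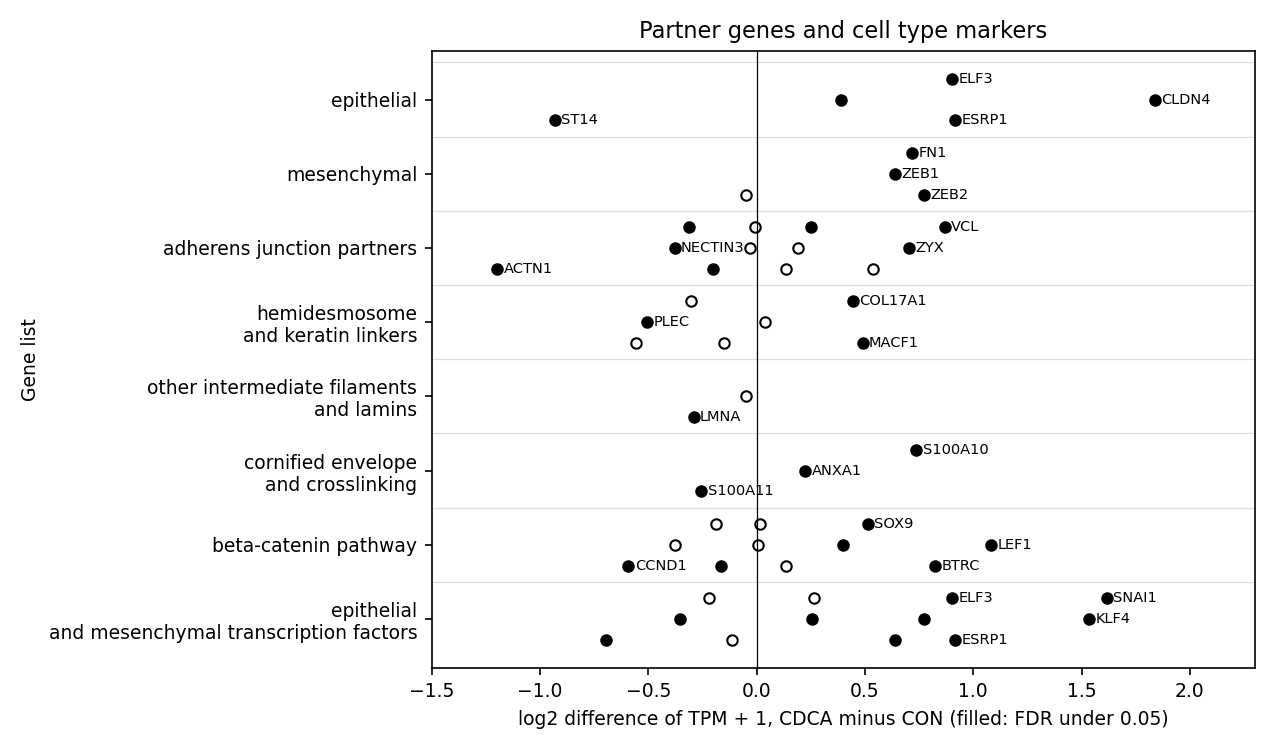
Difference of log2(TPM + 1), CDCA minus CON, for tested genes of 8 lists that are not members, filled where the FDR was under 0.05 (limma), with names on at most 4 genes of each list. Every list but the mesenchymal one and that of other intermediate filaments and lamins holds both filled points above 0 and filled points below 0.

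Markers of cell types were set beside the members, again against 29.3% of all tested genes higher and 23.9% lower. Of 12 epithelial markers, which include members, 9 were tested, 5 were higher and 2 were lower, and their summed level was 1042 to 1066 TPM in the CON libraries and 1553 to 1703 TPM in the CDCA libraries. Without CLDN4 the sum was 821 to 843 TPM in the CON group and 789 to 840 TPM in the CDCA group, and these ranges overlapped. CLDN4, a tight junction protein, rose from 225 ± 11.2 to 806 ± 50.5 TPM (log2 difference 1.84) and ST14, a membrane protease of epithelia, fell from 66.0 ± 4.29 to 34.0 ± 1.36 TPM (-0.93). GRHL2, a factor that defines epithelial cells, was listed at 0 in every library. Of 9 intestinal markers only SI was tested, at 1.17 ± 0.463 and 1.18 ± 0.164 TPM, and it did not pass. The summed intestinal markers came to 1.26 to 2.14 TPM in the CON libraries and 1.34 to 1.96 TPM in the CDCA libraries, and since values near 0 may be failed estimates, the intestinal label of the line could not be checked from them.

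Of 10 mesenchymal markers 4 were tested and 3 were higher, with a summed level of 2407 to 2630 TPM in the CON libraries and 2829 to 2861 TPM in the CDCA libraries. Without FN1 the sum was 1865 to 2067 TPM in the CON group and 1905 to 1961 TPM in the CDCA group, and these ranges overlapped. VIM, the intermediate filament of mesenchymal and many cultured cells, was at 1986 ± 109 TPM in the CON group and 1919 ± 31.3 TPM in the CDCA group (log2 difference -0.05, FDR = 0.429, limma), above every keratin member. FN1, which encodes fibronectin, rose from 560 ± 17.9 to 921 ± 19.0 TPM (log2 difference 0.72), and ZEB2 (0.77) and ZEB1 (0.64), repressors of CDH1, rose from about 1 TPM or less, ZEB2 reaching the filter only through the CDCA group (1.47 and 1.00 with a pseudocount of 0.1 TPM). The defining mesenchymal collagens COL1A1, COL1A2 and COL3A1 were each below 1 TPM in mean.

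Of 4 immune markers 2 were tested and neither passed, with PTPRC, which defines white blood cells, at no more than 0.01 TPM. The summed immune markers were at 2.98 to 4.58 TPM in the CON libraries and 3.67 to 6.12 TPM in the CDCA libraries. Of 3 endothelial markers PECAM1 was tested, with a log2 difference of -0.39 (FDR = 0.0246, limma) that was lost without CON replicate 2 or 3 or CDCA replicate 1 or 2 (FDR up to 0.0732), and the sum was 2.20 to 2.69 TPM and 1.87 to 2.33 TPM. The part of the epithelial and mesenchymal marker differences in the keratin and junction results was not tested.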

How the data were processed

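IPEC-J2 cells received PBS (CON) or 50 μM CDCA for 24 h, with 3 libraries each, grouped by the sample labels. After Illumina sequencing, the authors deposited RSEM TPM values with at most 2 decimals, several rows per pig Ensembl gene ID. The submitters' processing notes name Bowtie 0.12.2 and mm10, a mouse build, without saying for what, and an annotation release is not given in the sources used here. No coordinates are printed.

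Rows were summed per gene ID. limma 3.58.1 (R 4.3.3, eBayes with a trend) was fitted to log2(TPM + 1) of the 8708 genes averaging 1 TPM or more, with adjustment over all of them, and a call needed an FDR under 0.05 plus a log2 difference over 1 in size. The steps were tested on simulated data. The authors used edgeR, which needs counts.

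The members and lists were chosen with earlier results of these data known. Values are printed for PERP, the most abundant tested member of each role and the 3 largest rises and falls, and for the other tested members. Genes of the lists are named where the FDR was under 0.05, at most 4 a list; VIM, SI, RHOA, GRHL2, PTPRC, OVOL2, KLF5 and the collagens were named after their values were seen. The lists were epithelial, intestinal epithelial, mesenchymal, immune and endothelial markers, adherens junction partners, hemidesmosome and keratin linkers, other intermediate filaments and lamins, cornified envelope and crosslinking genes, the β-catenin pathway, and epithelial and mesenchymal transcription factors. The alternatives changed the pseudocount, filter, scaling, rows, trend and replicate block, and left out each library.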

Additional observations from a re-analysis of the deposited data

How the results depend on the processing

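DSP, KRT5, KRT7, EVPL and PPL kept their direction and an FDR under 0.05 under every alternative that tested them, EVPL having reached the filter only through the CON group. Of 16 members, 6 were higher and 3 lower. The count of members that were higher was 3 with totals without mtDNA-encoded genes (20.1% of all genes), and that of members that were lower was 6 there (31.9%) and 5 of 42 with no filter (9.11%), where KRT32 and KRT85 passed as lower and KRT15 as higher, all under 1 TPM. The count past the 2-fold limit downward was 1 (EVPL) with a pseudocount of 0.1 TPM, 1 (EVPL) with the listed TPM rescaled to 1000000, and 0 to 1 when each library was left out (PKP2 without CDCA replicate 2). Over all genes, 306 were called higher and 340 lower, against 509 and 505 with a pseudocount of 0.1 TPM and 523 and 481 with the rescaled TPM. Members by reference symbol gave the same counts.

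The log2 difference of CTNNA1 was -0.13 without mtDNA-encoded genes, -0.0395 with median ratio scaling and -0.0438 to 0.0692 when each library was left out. That of CTNND1 was 0.44 with its highest row and -0.234 to 0.0949 when each library was left out, positive without CDCA replicate 3. That of JUP was -0.0498 without mtDNA-encoded genes. With its highest row CTNND1 turned by construction, since its rows differ in direction, and without CDCA replicate 3 its lowest library (2.13 TPM) was left out. The totals without mtDNA-encoded genes moved the median of all genes by -0.13 and turned both CTNNA1 and JUP. Median ratio scaling moved it by -0.0437 and turned CTNNA1 but not JUP, which was at 0.0513. CTNNA1 also turned when some single libraries were left out.

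The deviations of same-numbered libraries from their group means correlated at -0.0353, -0.0916 and -0.0509 over genes. With 3 libraries in each group, these values cannot settle whether the replicate numbers pair the libraries. With the replicate block 4 members were higher (26.6% of all genes) and 3 lower (21.8%), and CTNNB1 (FDR = 0.0659) and PKP1 (FDR = 0.0732) did not pass in limma. The reads behind single values are unknown, so no limit was set from depth.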

Other observations

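The most abundant keratin in the table lay outside the members, since its gene ID carries no gene name. The entry described as keratin, type I cytoskeletal 14-like (ENSSSCG00000017448, 10 rows) was at 650.26, 680.79 and 696.50 TPM in the CON libraries and at 468.64, 456.76 and 500.71 TPM in the CDCA libraries. All CDCA libraries lay below all CON libraries, by 0.51 on the log2(TPM + 1) scale (SE 0.05, FDR = 0.000198, limma), and the log2 difference ran from -0.66 to -0.48 over the alternatives. It was picked after its values were seen. KRT5, the type II chain that pairs with keratin 14, was at a ratio of 0.0252 ± 0.002 to this entry in the CON group and 0.0471 ± 0.0059 in the CDCA group (SD, n = 3).

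With this entry counted as type I, the ratio of type II to type I keratin TPM was 0.434 ± 0.0204 in the CON group and 0.507 ± 0.0379 in the CDCA group. Over the named members alone the same ratio was 4.86 ± 0.175 and 3.67 ± 0.0903, so its direction turned with the entry. Another 18 entries without a name were described as keratins or catenins, and all were under the filter. Among them the entry described as keratin, type II cuticular Hb6-like was at 0.91, 0.69 and 0.85 TPM in the CON libraries and at 0.38, 0.33 and 0.31 TPM in the CDCA libraries.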
